A study of Mus musculus with 2 samples.

Results

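Accessible chromatin inside protein-coding sequence was examined in the left cerebral cortex of male B6CASTF1/J mice at 14 days of age. The coding-exon peaks were defined as DNase-seq peaks whose centre lay in a coding interval of a protein-coding gene in the GENCODE M21 annotation and over 1000 bp from any annotated transcription start, on chromosomes 1 to 19 of mm10. Replicate 1 held 2685 such peaks among 146581 peaks on these chromosomes (1.83%), and replicate 2 held 2715 among 151350 (1.79%). B6CASTF1/J animals are offspring of a cross between C57BL/6J and CAST/EiJ mice, and no treatment is given. The labels gave 1 group with 2 biological replicates, of which replicate 1 named 3 males and replicate 2 named 1 male, so there was no second condition and each comparison below is between kinds of sequence within a library. Both labels carry the same donor identifier, and it is not known whether the spread between the libraries is one between animals. With 2 libraries an exact sign-flip permutation test cannot give a p below 0.5, so differences are set against the spread between libraries and against Wilson 95% intervals, which cover counting error only.

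DNase I cuts DNA that is not wrapped in nucleosomes, and a peak marks a stretch that is cut more often than its surroundings. Within a peak, a bound protein can shield a few bases and leave a footprint. Peaks at transcription starts mark promoters, while most distant peaks in cortex lie in introns and between genes, where enhancers and sites of CTCF, a protein that organises chromatin loops, are found. Coding exons are read by the translation machinery as codons, and some of them also hold binding sites for transcription factors. The promoters of excitatory neuron markers (5 of 5), inhibitory neuron markers (3 of 3) and oligodendrocyte lineage markers (3 of 3) had a peak in both libraries, as did 2 of 3 astrocyte markers, with Aqp4 without one. Neither cardiac marker had a promoter peak, and of 3 hepatocyte markers Alb had one, in replicate 1 alone.

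The sequences of 6 coding-exon peaks are given to show what such a peak looks like and where the consensus words of its footprints fall. Each was found in both libraries and was among the 12 strongest shared sites or among the 2 strongest for its word. The bases are those of the RefSeq GRCm38 assembly (mm10) over the stretch common to the peaks of both libraries, written 5′ to 3′ on the strand of the gene, with the word that lay in a footprint of both libraries in capitals. They are Synpo2l (chr14:20661061-20661220, minus strand, CTCF word), Dgki (chr6:37097481-37097640, minus strand, CTCF word), Rsad1 (chr11:94544061-94544220, minus strand, NFI word TTGGCA), Fry (chr5:150466281-150466440, plus strand, AP-1 word TGAGTCA), Frem2 (chr3:53525761-53525920, minus strand, EGR word GCGTGGGCG) and Zfp771 (chr7:127254061-127254280, plus strand, E-box CAGATG on the other strand).
Synpo2l: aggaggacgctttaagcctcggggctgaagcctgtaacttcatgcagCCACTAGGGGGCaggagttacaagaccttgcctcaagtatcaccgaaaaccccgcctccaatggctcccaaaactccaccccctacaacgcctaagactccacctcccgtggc
Dgki: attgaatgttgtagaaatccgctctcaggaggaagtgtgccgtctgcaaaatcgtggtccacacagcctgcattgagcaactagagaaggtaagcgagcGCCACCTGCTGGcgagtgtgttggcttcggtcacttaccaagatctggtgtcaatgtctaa
Rsad1: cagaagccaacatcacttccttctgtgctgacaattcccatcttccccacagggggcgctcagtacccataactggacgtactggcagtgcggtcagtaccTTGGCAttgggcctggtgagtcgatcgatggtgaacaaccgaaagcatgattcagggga
Fry: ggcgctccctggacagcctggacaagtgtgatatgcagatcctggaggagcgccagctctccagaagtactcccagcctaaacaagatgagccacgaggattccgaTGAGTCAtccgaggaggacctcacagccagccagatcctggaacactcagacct
Frem2: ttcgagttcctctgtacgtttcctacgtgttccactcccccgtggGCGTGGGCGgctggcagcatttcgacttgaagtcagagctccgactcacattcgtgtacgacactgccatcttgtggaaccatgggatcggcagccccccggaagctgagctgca
Zfp771: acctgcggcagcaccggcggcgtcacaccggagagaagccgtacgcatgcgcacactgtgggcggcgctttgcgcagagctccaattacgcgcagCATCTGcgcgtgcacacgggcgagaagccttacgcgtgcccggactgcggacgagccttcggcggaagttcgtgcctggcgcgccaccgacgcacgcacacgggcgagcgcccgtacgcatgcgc

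All 160 bases of the Synpo2l, Fry and Frem2 stretches and all 220 bases of the Zfp771 stretch are coding. The Rsad1 stretch holds 64 coding bases, a complete exon, and its capital word is coding. In the Dgki stretch 75 bases are coding and 0 of the 12 bases of the CTCF word are. The centre of the peak lies in the exon, near its 3′ end, and the footprinted word lies past that end. A coding-exon peak is therefore not always a peak whose footprints are in codons. Over all coding-exon peaks, 81.1% of peak bases and 85.1% of footprint bases were coding in replicate 1, and 82.1% of peak bases and 86.5% of footprint bases in replicate 2.

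Coding sequence over 1000 bp from starts held more peaks per base than any other class of sequence at that distance. It amounted to 24.0 Mb, or 1.07% of all sequence over 1000 bp from starts, and held 2.48% of the peaks there in replicate 1 and 2.39% in replicate 2. The density was 112 peaks per Mb of coding sequence in replicate 1 and 113 in replicate 2. Introns held 55.1 and 57.7 peaks per Mb, other exon sequence 72.0 and 73.7, and intergenic sequence 40.3 and 42.3 (replicate 1 first). The ratio of coding exons to introns was 2.00 ± 0.0502 (SD, n = 2 libraries), many times larger than its spread between libraries.

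That ratio turned round when sequence of the same base composition was compared, an alternative chosen after the data were seen. With introns taken at the GC content of coding sequence, the ratio was 0.838 in replicate 1 and 0.809 in replicate 2 (0.823 ± 0.0203, SD, n = 2). Coding windows with 45 to 50% GC held 73.4 and 72.2 peaks per Mb, against 73.0 and 76.6 in introns. At 55 to 60% GC, coding sequence held 151 and 157 peaks per Mb, against 221 and 240 in introns. At 65% GC or more the order changed again, with 644 and 571 peaks per Mb in coding sequence against 448 and 426 in introns. The coding sequence in this last bin was 0.669 Mb and held 431 peaks in replicate 1 and 382 in replicate 2. Base composition therefore moves with the excess of peaks in coding exons, and its part in that excess was not tested beyond this comparison.

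**Figure D1:**
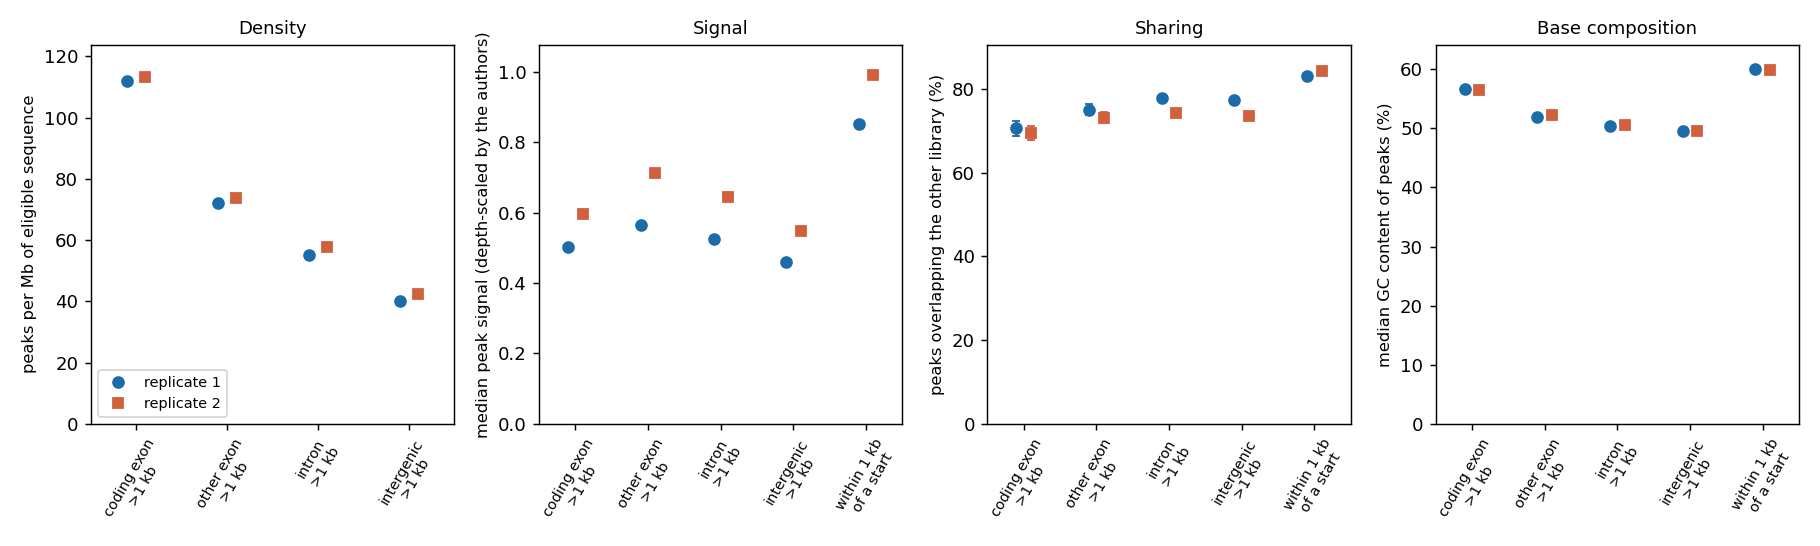
Density, median signal, sharing between libraries and GC content of peaks by place in the genome, with 1 point per library (circles replicate 1, squares replicate 2; bars on sharing are Wilson 95% intervals). Coding-exon peaks lie highest in density (112 and 113 per Mb) and lowest in sharing (70.6% and 69.5%), and only peaks within 1000 bp of a start have a higher GC content.

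**Figure D2:**
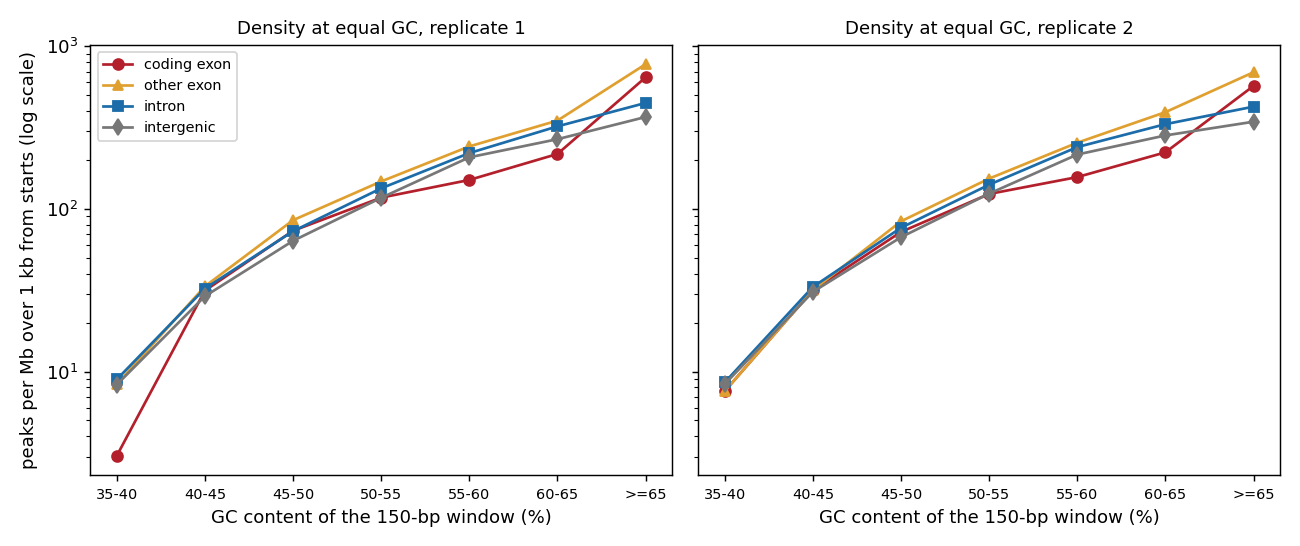
Peaks per Mb (log scale) over 1000 bp from starts against the GC content of 150-bp windows, for coding exons, other exons, introns and intergenic sequence, 1 panel per library. Density climbs with GC in every class, and the coding line lies below the intron line between 50% and 65% GC (151 and 157 against 221 and 240 peaks per Mb at 55 to 60%) and above it from 65% GC.

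The coding-exon peaks were slightly lower than intronic peaks. Signal is the height of a peak, which the authors scaled for depth, and its median was 0.502 in replicate 1 and 0.596 in replicate 2, against 0.526 and 0.645 in introns, a ratio of 0.939 ± 0.0220 (SD, n = 2). Peaks within 1000 bp of a start were higher, with medians of 0.852 and 0.989, and intergenic peaks lower, with 0.459 and 0.547. The middle of the coding-exon distribution ran between quartiles of 0.360 and 0.791 in replicate 1 and of 0.405 and 0.952 in replicate 2, and the highest peaks reached 11.3 and 13.9. Of all peaks over 1000 bp from starts ranked by signal, the top decile took in 8.34% of coding-exon peaks in replicate 1 and 7.85% in replicate 2. Median width was 180 bp in coding exons and in each other class over 1000 bp from starts.

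Coding-exon peaks were found again in the other library less often than intronic, intergenic and start peaks. In replicate 1, 1895 of 2685 overlapped a peak of replicate 2 (70.6%, 95% interval 68.8 to 72.3), and in replicate 2, 1887 of 2715 overlapped a peak of replicate 1 (69.5%, 67.7 to 71.2). Among all peaks over 1000 bp from starts the shares were 77.3% and 73.8%, among introns 77.8% and 74.3%, and at starts 83.2% and 84.2%. The difference from introns was -5.99 ± 1.73 percentage points (SD, n = 2). Sharing rises with signal, so intronic peaks were also weighted to the signal of the coding-exon peaks, an alternative chosen after the data were seen. The difference was then -5.80 points in replicate 1 and -1.99 in replicate 2, with an SD of 2.70 between libraries that is close in size to its mean of -3.90. Peaks in other exon sequence were shared by 75.04% and 73.1%. Weighted to the same signal they gave 70.8% in replicate 1 and 67.1% in replicate 2, so coding-exon peaks were not shared less often than these at equal signal in both libraries. Intergenic peaks were shared by 77.3% and 73.6%. At the signal of coding-exon peaks they gave 81.4% in replicate 1 and 77.1% in replicate 2, above coding-exon peaks in both libraries.

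By deciles of signal, the gap lay in the lower and middle range of replicate 1. In decile 6, 72.8% (67.7 to 77.3) of coding-exon peaks of replicate 1 were shared, against 84.4% of intronic ones, while in decile 9 the shares were 100% of coding-exon peaks and 99.6% of intronic ones. In replicate 2, decile 6 gave 75.1% for coding exons and 79.4% for introns, and decile 4 gave 61.1% and 60.05%, and in these 2 deciles the intronic value lay within the counting interval. In decile 8 of replicate 2 the shares were 94.2% (90.8 to 96.4) of coding-exon peaks and 96.7% of intronic ones, and the intronic value lay outside that interval. Unshared coding-exon peaks were low, with medians of 0.355 (replicate 1) and 0.399 (replicate 2), against 0.616 and 0.762 for shared ones. Of the unshared ones, 11.3% of replicate 1 and 13.2% of replicate 2 touched an interval that the authors list for the other library at a false discovery rate of up to 0.05, against 12.8% and 13.3% of unshared intronic peaks.

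**Figure D3:**
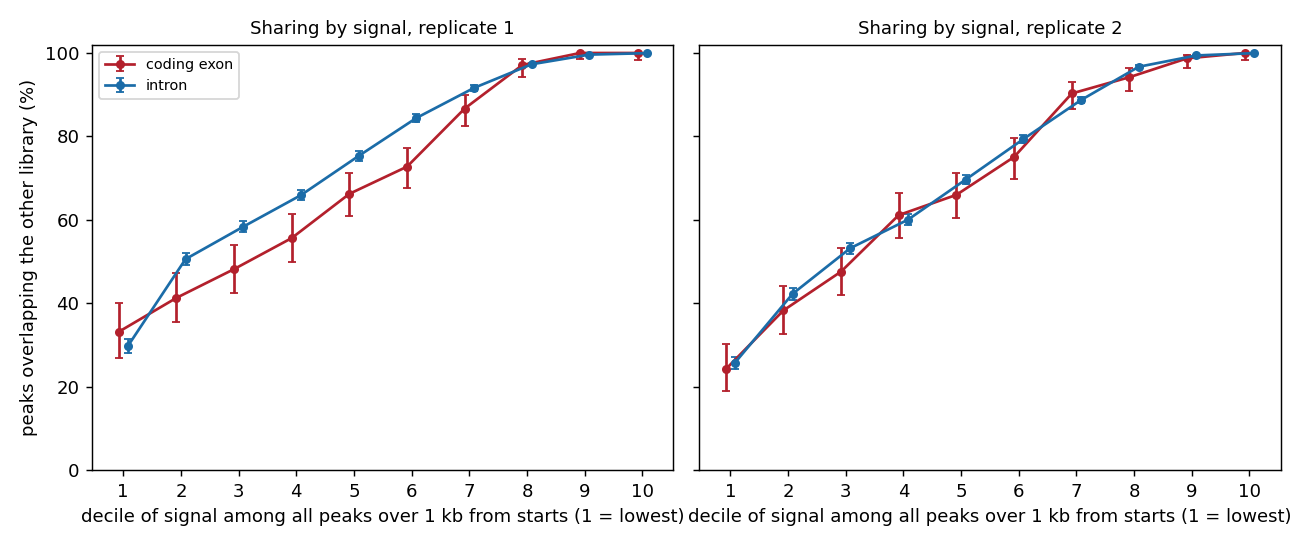
Percent of peaks overlapping a peak of the other library in deciles of signal (1 lowest), for coding-exon and intronic peaks, 1 panel per library, with Wilson 95% intervals. In replicate 1 coding-exon peaks lie below intronic ones from decile 2 to decile 7 (72.8% against 84.4% in decile 6), in replicate 2 the lines are closer in decile 6 (75.1% against 79.4%), and in both nearly all peaks of the top deciles are shared.

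Merging overlapping coding-exon peaks of both libraries gave 3596 sites, of which 1713 had a coding-exon peak in both libraries, 930 in replicate 1 alone and 953 in replicate 2 alone. At some of these single-library sites the other library had a peak that was not a coding-exon peak. Only 790 coding-exon peaks of replicate 1 and 828 of replicate 2 overlapped no peak of the other library. Over the 1713 shared sites, log10 signal in the 2 libraries had a Pearson r of 0.920 and Spearman's rho was 0.903, given as a description since the sites come from the same 2 libraries. The log2 ratio of replicate 2 to replicate 1 had an SD of 0.39 across sites. A site could be followed in repeated sequence with less certainty, and 12 of the 1713 had at least 50% of their 31-base words in more than 1 genomic copy.

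Footprints were present in most coding-exon peaks, slightly less often than in introns. At least 1 footprint lay in 83.1% of coding-exon peaks of replicate 1 and 81.7% of those of replicate 2, against 84.5% and 83.7% of all peaks over 1000 bp from starts and 86.2% and 85.7% of intronic ones. Intergenic peaks held at least 1 footprint in 82.6% and 81.3% of cases, and peaks at starts in 83.2% and 83.4%. With introns weighted to the same signal, coding-exon peaks differed from them by -2.07 points in replicate 1 and -2.03 in replicate 2. Peaks in other exon sequence weighted to the same signal gave 82.2% in both replicate 1 and replicate 2. Intergenic peaks weighted in this way gave 87.0% in replicate 1 and 85.6% in replicate 2. At equal signal they were thus above coding-exon peaks, while their unweighted shares were slightly below. Footprints covered 12.9% and 13.0% of the bases of coding-exon peaks, against 15.02% and 15.4% in introns. The median was 2 footprints per peak in both classes. In peaks that were themselves shared, 54.1% of footprints of replicate 1 and 55.7% of those of replicate 2 overlapped a footprint of the other library, against 59.2% and 57.8% in introns and 67.4% and 68.0% at starts. Among the 1713 shared sites, 82.4% had a footprint in both libraries.

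The sequence of coding-exon peaks was richer in GC and in CpG than coding sequence at large. Median GC was 56.7% in replicate 1 and 56.5% in replicate 2, against 50.4% and 50.6% in intronic peaks and 50.7% in 159889 windows of 150 bp tiled over coding sequence at this distance from starts. The observed to expected ratio of CpG, which is low where methylated CpGs have been lost in evolution, had medians of 0.469 and 0.459 in coding-exon peaks, against 0.245 and 0.235 in intronic peaks and 0.330 in the coding windows. A GC content over 50% together with a CpG ratio over 0.6, as in CpG islands, held for 30.99% and 28.0% of coding-exon peaks, for 3.82% and 3.43% of intronic peaks, for 8.15% of coding windows and for 51.1% and 50.2% of peaks at starts. Coding-exon peaks of this kind had median signals of 0.573 and 0.682, against 0.478 and 0.571 for the other coding-exon peaks. They were shared by 69.7% against 70.97% of the others in replicate 1 and by 76.7% against 66.7% in replicate 2, so that their sharing did not differ in the same direction in the 2 libraries.

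The richness in GC ran through all codon positions. At codon position 3, where most changes leave the amino acid as it is, coding-exon peaks had 68.1% GC in replicate 1 and 67.03% in replicate 2, against 56.3% in all eligible coding sequence. At position 1 the values were 61.6% and 61.2%, against 54.9%. At position 2, where every change alters the amino acid, they were 47.6% and 47.1%, against 41.7%. The gap was thus widest at position 3.

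Coding-exon peaks were spread unevenly along genes. In the transcript with the longest coding sequence, which held 2629 of the peaks of replicate 1 and 2661 of those of replicate 2, the last coding exon took 25.8% and 24.7% of peaks, against 18.6% of eligible coding bases. The first coding exon took 7.11% and 6.46%, against 4.01% of bases, and genes with a single coding exon took 9.13% and 8.91%, against 4.62%. Internal exons held 58.0% and 59.9%, against 72.8%. In peaks per Mb, single coding exons had 220 and 217, first exons 197 and 182, last exons 154 and 149, and internal exons 88.7 and 92.7. The last decile of the coding sequence held 15.5% and 14.8% of peaks, against 11.7% of eligible bases, and the first decile 5.59% and 5.49%, against 6.17%.

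Peaks were also closer to starts and in longer exons than coding sequence at large. Between 1000 and 2000 bp from the nearest start lay 25.2% of peaks in replicate 1 and 24.5% in replicate 2, against 15.9% of eligible bases. The median distance was 4623 bp and 4754 bp. The exon under a peak had a median length of 231 and 224 bp, against 185 bp over eligible bases, and exons over 1000 bp took 21.1% and 20.03% of peaks, against 16.7% of bases. Peaks in these long exons of replicate 2 had a median GC of 59.03%, against 55.9% in shorter ones. A peak lay wholly inside its coding exon in 45.5% and 45.4% of cases and covered the whole exon in 17.6% and 16.4%.

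**Figure D4:**
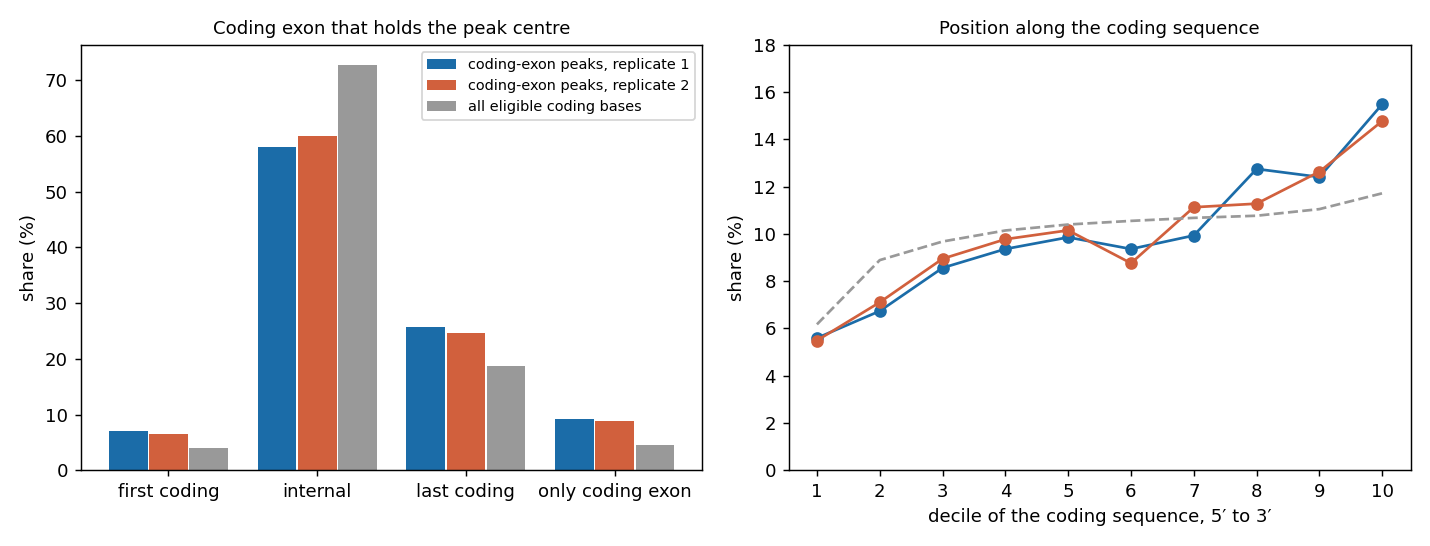
Left, share of coding-exon peaks (2 libraries) and of all eligible coding bases in first, internal, last and only coding exons; right, the same shares along deciles of the coding sequence from 5′ to 3′. Peaks exceed bases in last exons (25.8% and 24.7% against 18.6%) and in the last decile (15.5% and 14.8% against 11.7%), and fall short of them in internal exons.

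The strongest shared site lay in the first coding exon of Angptl6, which encodes a secreted angiopoietin-like protein. Its signal was 11.3 in replicate 1 and 13.9 in replicate 2 (12.6 ± 1.80, SD, n = 2), at chr9:20878121-20878520. The peak spanned the whole site with 11 footprints in replicate 1, and a narrower part of it, from 20878261 to 20878320, with 2 footprints in replicate 2. Its centre lay 1436 bp from the nearest annotated start.

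Next came Fbxl22, an F-box protein, in the second of its 2 coding exons (chr9:66511621-66512020), with 7.16 in replicate 1 and 7.51 in replicate 2. The Synpo2l site shown above, in the last exon of a gene for an actin-associated protein best known from heart, had 6.27 and 7.92. The Zfp771 site shown above, in the last exon of a zinc finger gene, had 6.59 and 7.65. Among the 12 strongest sites these 4 had the highest mean rank, and each was in a first or last coding exon.

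The remaining 8 sites covered several kinds of genes. 1700008O03Rik had 6.26 and 6.89 in its last coding exon. Rsad1, a radical SAM domain protein, had 6.25 and 7.25 in an internal exon of 64 bp. The only coding exon of B430305J03Rik had 5.17 and 7.61. Ctc1, a subunit of a complex that maintains telomeres, had 5.62 and 6.11 in the last of its 23 coding exons. Def6, a guanine nucleotide exchange factor of lymphocytes, had 5.47 and 5.61 in an internal exon. Ino80c, a subunit of the INO80 chromatin remodeller, had 5.03 and 7.30, and Sft2d3 had 5.24 and 5.59 in its only coding exon. In Psmc2, an ATPase subunit of the proteasome, a peak in the first coding exon had 5.09 and 5.47. Of the 12 sites, 9 lay within 3000 bp of an annotated start, although over 1000 bp from it. The median distance over all coding-exon peaks was 4623 bp in replicate 1 and 4754 bp in replicate 2. Their share within 3000 bp was not counted, and whether the strongest sites lie closer to starts was not tested.

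Shared coding-exon sites were found in 1526 of 18254 protein-coding genes with eligible coding sequence (8.36%), and 1364 of these genes had 1 site, 144 had 2 and 18 had 3 or more. The share grew with coding length: sites were found in 2.05% of genes in the shortest quintile by eligible length and in 17.97% of those in the longest. A promoter peak in both libraries was present in 81.1% of host genes, against 72.5% of all genes. Within the longest quintile the shares were 87.7% of host genes and 80.6% of other genes, and within the shortest 70.7% and 62.2%.

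Tchh had the most sites, with 7 in a single exon. It encodes trichohyalin, a structural protein of the hair follicle, and its promoter had a peak in 1 library only. The 7 sites lay within 4340 bp (chr3:93443501-93447840), at signals from 0.365 to 1.80 in replicate 1 and from 0.338 to 2.17 in replicate 2, and their GC content was 56.4 to 63.6%. Irs1, the insulin receptor substrate, had 5 sites within 3403 bp of its single coding exon (chr1:82287018-82290420). Of these, 4 were low, at 0.336 to 0.369 in replicate 1, and the site nearest the start of the coding sequence had 1.75 in replicate 1 and 2.32 in replicate 2.

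Several genes with very long coding sequences held sites at wider spacing. Dst and Syne1, which encode the giant cytoskeletal linkers dystonin and nesprin-1, had 5 sites each, over 101218 bp and 220420 bp. Macf1, another giant linker, had 4, all below 1 in signal in both libraries. Sptbn4, the spectrin of the axon initial segment, had 4 sites, from 0.696 to 1.65 in replicate 1 and from 0.780 to 1.55 in replicate 2. Chd7, a chromatin remodeller, and Zan, a sperm membrane protein, had 4 each, and Adamts5, an aggrecan-cleaving protease, and Ccdc162 had 3 each, the first in alphabetical order among the genes tied at 3. Zan had no promoter peak in either library, and its sites were weak, at 0.275 to 0.545 and 0.307 to 0.866.

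Among groups of genes, Sox, Forkhead and neural progenitor factors held more sites per base than all genes together, with more GC in their coding sequence, and no list below was tested against others. The rate over all protein-coding genes was 71.3 shared sites per Mb at 51.0% GC of eligible coding bases. Sox genes, developmental transcription factors, held 480 per Mb with sites in 6 of 16 genes, at 59.5% GC. That rate rests on 7 sites in only 0.0146 Mb. The strongest was in the last exon of Sox8, with 2.48 in replicate 1 and 2.52 in replicate 2, followed by Sox5 with 0.933 and 1.21. Forkhead genes held 197 per Mb (7 sites in 0.0355 Mb) in 7 of 36 genes at 59.8% GC, led by Foxk2 and Foxo3. Factors of neural progenitors held 149 per Mb (5 sites in 0.0336 Mb) in 4 of 18 genes at 56.7% GC. They were led by the proneural gene Neurog2, with 1.48 and 1.33, and by Lhx2. Sox9 is in both the Sox list and this list, and holds 2 of the 5 sites of this one. Hox genes had 1 host among 31, Hoxc10, which came to 90.7 per Mb at 58.02% GC. Zinc finger genes named Zfp held 47.3 per Mb in 26 of 377 genes at 47.5% GC, led by Zfp771 and by Zfp219 with 4.99 and 3.89.

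Genes of neuronal activity and excitability were also above the overall rate per Mb. Activity-regulated genes held 319 per Mb in 6 of 20 genes at 56.9% GC, a rate that rests on 6 sites in only 0.0188 Mb. In this list Junb, a subunit of AP-1, had 1.25 and 1.59 in its only exon. Vgf, a secreted neuropeptide precursor, had 1.21 and 1.13 at its shared site. Vgf had 2 coding-exon peaks in replicate 1, and the higher, at 3.41, was not the one at the shared site. All coding-exon peaks in the top signal decile of replicate 1 overlapped a peak of replicate 2. No other coding-exon peak was counted in Vgf in replicate 2, so the libraries are not compared at the 3.41 peak. Potassium channels held 186 per Mb in 16 of 88 genes at 53.7% GC, with Kcnj9, an inward rectifier, at 1.71 and 2.09 and Kcng3 at 1.17 and 1.76. Genes of excitatory neurons and the postsynapse held 135 per Mb (8 sites in 0.0593 Mb) in 6 of 26 genes at 57.3% GC. Their strongest were the last exons of Dlgap3, a postsynaptic scaffold, with 1.25 and 1.22, and of Grin1, the obligate subunit of NMDA receptors, with 1.07 and 1.34. Counted by library, coding-exon peaks in this list numbered 25 in replicate 1 and 14 in replicate 2, or 421 and 236 per Mb.

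Chromatin regulators stood near the overall rate, with 74.2 per Mb in 9 of 31 genes, led by the last exon of Ncor1, a corepressor with 31.8% of its site in repeated words, and an internal exon of the methyltransferase gene Kmt2a, with 1.63 and 1.69. Astrocyte and oligodendrocyte lineage genes held 87.8 per Mb in 3 of 17 genes, among them Gfap, the astrocyte filament protein, with 0.876 and 1.14, and Pdgfra. Counted by library, coding-exon peaks in this list numbered 3 in replicate 1 and 10 in replicate 2, or 87.8 and 293 per Mb, against 112 and 113 over all genes. Spectrins, ankyrins and other large cytoskeletal genes held 104 per Mb in 8 of 20 genes, and kinesins 112 per Mb in 10 of 38, led by Kif26b with 3.11 and 2.61 and Kif19a with 2.42 and 2.34. Keratins held 160 per Mb (7 sites in 0.0438 Mb) in 7 of 51 genes, led by Krt88 and Krt77. Laminins held 114 per Mb in 6 of 11, led by Lama5 and Lamb1, ADAMTS proteases 104 per Mb in 4 of 19, and LDL receptor related genes 85.7 per Mb in 4 of 12, led by Lrp1 and Lrp4.

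Some families held fewer sites per Mb than all genes together. Clustered protocadherins, adhesion proteins that give neurons surface identities and whose variable exons are long, had 0 sites in 54 genes, which allows a share of up to 5.56% of genes, and 0 coding-exon peaks in either library in 0.0831 Mb. Their coding sequence had 53.9% GC, above the 51.0% of all genes. Collagens held 18.2 per Mb in 3 of 42 genes at 57.4% GC, led by Col4a2 with 1.01 and 1.05 and by Col9a1. Olfactory receptors, at 44.6% GC, had a site in 1 of 271 genes, Olfr95. Axonemal dyneins held 42.4 per Mb (6 sites in 0.141 Mb) in 5 of 12 genes, with Dnah1 at 3.03 and 2.27 and Dnah2 at 1.24 and 1.01. Myosin heavy chains held 58.7 per Mb (4 sites in 0.0682 Mb) in 3 of 14, led by Myh3 and Myh7b. Semaphorins and plexins held 59.8 per Mb (4 sites in 0.0669 Mb) in 4 of 27, led by Sema3b and Plxnc1. These last 2 rates rest on 4 sites each and lie near the 71.3 per Mb of all genes. Ribosomal proteins were not among these families in sites per Mb: their single site, in Rpl32, lay in only 0.00683 Mb of eligible coding sequence over 38 genes, or 146 per Mb, and was 87.7% repeated words.

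Consensus words of transcription factors were counted in footprints extended by 5 bp, on either strand. The CTCF word lay in a footprint of 3.20% (2.60 to 3.94) of coding-exon peaks in replicate 1 and 2.91% (2.34 to 3.61) in replicate 2, against 4.81% and 4.21% of all peaks over 1000 bp from starts and 4.41% and 3.85% of intronic peaks. The difference from introns was -1.07 ± 0.190 percentage points (SD, n = 2). The word is rare in coding sequence, at 0.118% of coding windows of 150 bp, against 3.43% and 3.13% of windows of that length on coding-exon peaks. Coding-exon peaks with the word in a footprint had median signals of 1.55 and 1.44, against 0.497 and 0.584 for those without it. Of these words 75 of 86 lay in coding bases in replicate 1 (87.2%) and 66 of 79 in replicate 2 (83.5%), and 70 sites held the word in a footprint of both libraries. Synpo2l, shown above, was the strongest, and Dgki, a diacylglycerol kinase whose word lies in the intron, had 4.90 and 5.25.

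The AP-1 word, TGACTCA or TGAGTCA, which is bound by FOS and JUN dimers, lay in a footprint of 0.596% and 0.626% of coding-exon peaks, against 1.44% and 1.71% of all peaks over 1000 bp from starts and 1.48% and 1.72% of intronic peaks. Of these words 10 of 16 and 13 of 17 were coding. In or out of footprints, the AP-1 word was in 3.54% and 3.46% of windows on coding-exon peaks and 6.53% and 7.20% of those on intronic peaks. It was in 1.94% of coding windows. Fry, the mouse relative of the Drosophila gene furry, held the strongest AP-1 site, with 2.19 and 3.28. The homeobox word TAATTA lay in a footprint of 2 coding-exon peaks (0.0745%) in replicate 1 and 0 of 2715 in replicate 2, which allows a share of up to 0.110% by the limit of 3 counts (Wilson upper limit 0.141%), against 0.489% and 0.383% of all peaks over 1000 bp from starts and 0.469% and 0.357% of intronic ones. That word is made of A and T alone and was in 0.559% and 0.479% of windows on coding-exon peaks, 2.72% and 2.29% of those on intronic peaks and 1.72% of coding windows. The short word of NFI, TTGGCA, was in footprints of 5.21% and 6.998% of coding-exon peaks, against 6.81% and 8.3% of all peaks at this distance and 7.18% and 8.79% of intronic ones. Rsad1 and Btd, which encodes biotinidase, were its strongest of 83 sites.

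The EGR word and the palindromic E-box had the other order. The EGR word GCGTGGGCG lay in a footprint of 0.410% and 0.368% of coding-exon peaks, against 0.124% and 0.127% of all peaks over 1000 bp from starts and 0.113% and 0.124% of intronic peaks. In or out of footprints, the word was in 0.484% and 0.552% of windows on coding-exon peaks and 0.139% and 0.135% of those on intronic peaks. It was in 0.0538% of coding windows. The footprint shares rest on 11 and 10 coding-exon peaks. Their strongest sites were in Frem2, an extracellular matrix protein, with 3.47 and 4.35, and in Rasip1, a vascular RAS-interacting protein, with 2.73 and 2.75. The E-box CAGCTG was in footprints of 7.56% and 6.81% of coding-exon peaks, against 5.9% and 5.84% of all peaks at this distance and 6.07% and 6.10% of intronic peaks, and was in 21.9% and 22.9% of windows on coding-exon peaks against 12.1% of coding windows. In replicate 2 the 95% interval of the coding-exon share, 5.93 to 7.82, took in the intronic value. The E-box CAGATG, a form favoured by NEUROD and NEUROG proteins, was in 6.70% and 6.92%, against 7.61% and 7.73% of all peaks at this distance and 7.77% and 8.01% of intronic ones, with Zfp771 and Ctc1 the strongest of 99 sites. The word TGACGTCA of CREB lay in a footprint of 0.223% and 0.221% of coding-exon peaks, against 0.214% and 0.246% of all peaks at this distance and 0.235% and 0.264% of intronic ones, and its strongest sites were in Krt88 and Lhx2. The RFX word, of factors that act on genes of cilia, gave 0.298% and 0.295%, against 0.241% and 0.254% of all peaks at this distance and 0.248% and 0.278% of intronic ones, with Ino80c and Myo16 as its strongest sites. The 7 other words searched were in footprints of at most 4 coding-exon peaks per library. The GC box GGGCGGGG was in 0.782% and 0.773%, against 0.899% and 0.892% of all peaks at this distance and 0.901% and 0.907% of intronic peaks. Only 12 of 23 of its words in replicate 1 and 11 of 22 in replicate 2 were in coding bases.

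**Figure D5:**
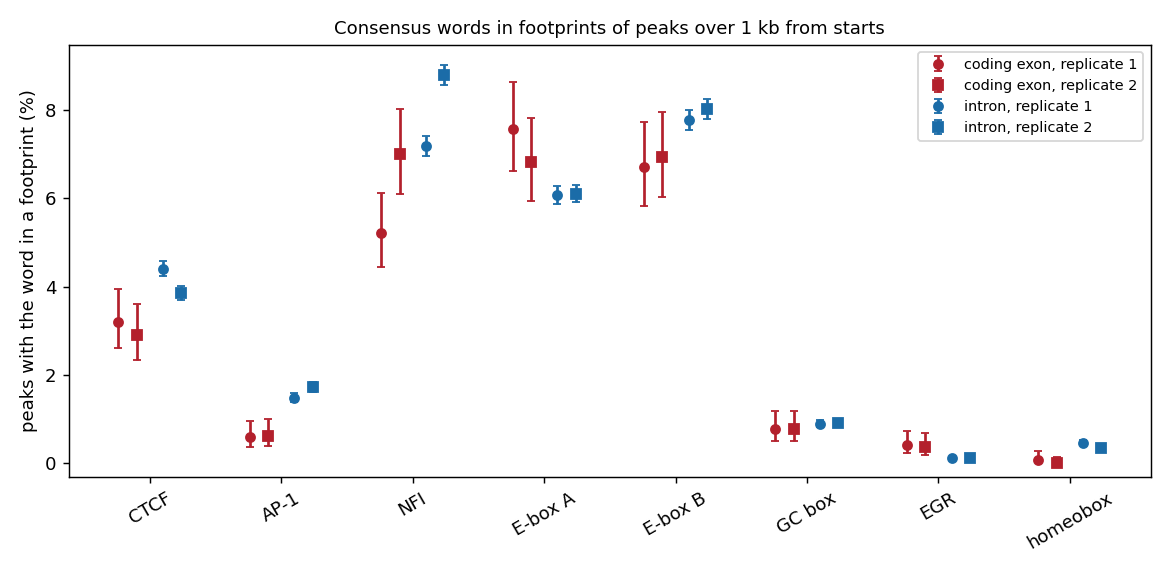
Percent of peaks with a consensus word in a footprint, for coding-exon and intronic peaks over 1000 bp from starts, with 1 point per library and Wilson 95% intervals; NFI is its short word, E-box A is the palindromic form and E-box B the form favoured by NEUROD proteins. CTCF, AP-1 and homeobox words lie lower in coding-exon peaks (CTCF 3.20% and 2.91% against 4.41% and 3.85%), and the EGR word lies higher (0.410% and 0.368% against 0.113% and 0.124%). In or out of footprints, each of these words differed in the same direction between 150-bp windows on coding-exon and on intronic peaks.

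The peaks nearest the distance limit had similar heights. Just inside it, at 1001 bp from a start, were a peak in Pnpla8 with a signal of 0.442 in replicate 2 and one in Map4 with 0.417 in replicate 1. Just outside, at 1000 bp, were peaks in the coding sequence of Mroh6, with 0.436 in replicate 1, and of Sall3, with 0.479 in replicate 2.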

How the data were processed

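DNase-seq libraries of 2 replicates were compared within the libraries. Per the file headers and notes, the authors made each deposited file from that library's own mm10 alignments, without pooling. Aligner, callers and read depth: not given in the sources used here. Signal, as deposited by the authors, was scaled to depth and came in steps of 0.00474 (replicate 1) and 0.00614 (replicate 2), and the median coding-exon peak stood at 106 and 97 steps. Intervals with a q-value (false discovery rate) of up to 0.05 were deposited in a separate file. The score in the deposited footprint file was constant and was not used.

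The larger peak list of each library was used. Peak centres were placed in coding, other exon, intron or intergenic sequence of GENCODE M21, and densities are per Mb of that sequence. Each peak counts once, although 30 and 33 coding-exon peaks overlapped another of their library. Sharing is an overlap of at least 1 bp. A gene was a host if its coding sequence held the centre.

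The members, 23 gene lists and 17 words were chosen with earlier results of these data known. Genes were named by a rule: the 12 shared sites with the highest mean rank, the 10 genes with most sites (ties in alphabetical order), the 2 strongest per list and per word, and the peaks at the distance limit. Words are described where at least 10 coding-exon peaks or 100 intronic peaks of each library held them. No test across features was made, and the exact sign-flip test over 2 libraries cannot go below 0.5. The code for placement, density, sharing and words was run on simulated data. Placement there was drawn from and read with the same map, so its recovery was fixed in advance and says nothing about real peaks.

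Alternatives were the stricter list, the distance, the placement, the height, repeated sequence, basic transcripts, the overlap, the place of the word and each library alone. The comparisons at equal GC and at equal signal, the split of sites by promoter state, and the place of words relative to coding bases were added after the data were seen. Scripts ran under Python 3.11.15; packages were Matplotlib 3.10.9, Numba 0.67.0, SciPy 1.17.1, pandas 2.3.3 and NumPy 2.4.6.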

Additional observations from a re-analysis of the deposited data

How the results depend on the processing

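Of 87 alternative values, 54 stayed within the spread between libraries or within 1.5 times a count. Another 32 moved beyond that and kept their direction, several of them towards no difference. The last 1 turned round: the density ratio of coding exons to introns, 2.00, was 0.823 at equal GC. The 54 include the values of each library alone, which, counts apart, cannot leave the spread between 2 libraries. No paired analysis was possible because there was 1 group.

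The density ratio was 1.85 with the stricter list, 2.16 at 500 bp, 1.85 at 2000 bp, 1.90 where at least 50% of peak bases had to be coding, and 1.83 for peaks above the median signal. The number of coding-exon peaks, 2700 on average, was 1340 with the stricter list and 1160 above the median, and host genes numbered 833 and 815 under these settings, which hold fewer peaks.

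The difference in sharing, -5.99 points, was -1.84 above the median signal, -8.41 with a reciprocal overlap of 50%, and -3.90 at equal signal. The signal ratio was 0.965 above the median. The difference in footprints, -3.56 points, was -5.00 at 500 bp, -2.82 at 2000 bp, -1.54 above the median and -2.05 at equal signal.

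The GC difference, 6.07 points, was 6.36 with the stricter list, 7.03 at 500 bp, 5.29 at 2000 bp, 6.34 with at least 50% coding bases, 6.65 above the median and 6.35 with basic transcripts. The share of last exons, 25.2%, was 26.4%, 21.9%, 26.6%, 28.0% and 21.9% with the stricter list, at 500 bp, at 2000 bp, above the median and with basic transcripts. The CTCF difference, -1.07 points, was -1.60, -1.36, -1.38 and -1.60 with the stricter list, at 500 bp, at 2000 bp and above the median. Apart from equal GC and equal signal, the cause of these moves was not tested.

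Each library alone gave density ratios of 1.96 to 2.03 and differences in sharing of -7.22 to -4.77 points. Peaks near the limit of detection are the least certain, since sharing fell to 33.2% and 24.2% in the lowest decile of signal. The mice carry a CAST/EiJ genome beside the C57BL/6J one on which mm10 is based, and reads by allele were not analysed here.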

Other observations

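Some genes held many coding-exon peaks in 1 library and few in the other, and these were chosen after their values were seen. Among the 19 genes whose counts differed by at least 4, Plec, which encodes the cytoskeletal linker plectin, had 0 in replicate 1 and 14 in replicate 2. The 14 lay between 76172181 and 76177800 on chromosome 15, at low signals of 0.147 to 0.307, and 0 of them touched an interval listed for replicate 1 at a false discovery rate of up to 0.05. Spen, a transcriptional repressor with a very long exon, had 12 in replicate 1, from 0.227 to 1.83, and 2 in replicate 2, from 0.768 to 3.08. Neurod2, a transcription factor of cortical excitatory neurons, had 4 in replicate 1, from 0.483 to 0.573, all with footprints, and 0 in replicate 2. Irs2, Dusp8, Rhbdf1 and Zbtb45 each had 5 in replicate 1 and 0 in replicate 2, none of them overlapping a peak of replicate 2. Per1, a clock gene, had 1 in replicate 1 and 7 in replicate 2. The label of replicate 1 names 3 males and that of replicate 2 names 1, and whether these differences belong to animals or to libraries cannot be told apart.

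Of the 1713 shared sites, 258 (15.1%) lay in genes without a promoter peak in either library, which made up 23.9% of genes and 19.1% of eligible coding bases. The split was made after the data were seen. These sites had a median signal of 0.673, against 0.709 for the other sites, and a median GC of 57.5% against 56.2%. They made up 7 of the 40 strongest sites. After Synpo2l the strongest were in Klf1, a transcription factor of red blood cell precursors, with 4.87 and 4.37, and in Apoa1, the main protein of high-density lipoprotein made by liver and gut, with 4.49 and 4.39 in its last coding exon. Next came Clca3b, with 4.61 and 4.02. These genes are named in order of mean rank and were chosen after their values were seen. A peak in the coding sequence of a gene thus did not always come with an open promoter of that gene.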
